A study of Arabidopsis thaliana with 12 samples.

Results

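Heat shock proteins are molecular chaperones that keep other proteins folded, and plants make most of them when temperature rises or when proteins are damaged by other stresses. In *Arabidopsis* the genes are switched on by heat shock factors, transcription factors that bind repeats of the bases GAA and TTC (heat shock elements) close to the gene. HSP101 pulls aggregated proteins apart, HSP70 and HSP90 fold and hold client proteins, and the small heat shock proteins bind unfolding proteins before they aggregate. HSFA2 is a heat shock factor that prolongs the response, and DREB2A is a transcription factor of drought and heat responses that acts upstream of a further heat shock factor, HSFA3.

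The genes described here are 10 rows of a leaf count table of 33610 genes, taken by their identifiers: the regulators *HSFA2* and *DREB2A*, the chaperone genes *HSP101*, *HSP90.1* and *HSP70*, and the small heat shock protein genes *HSP17.6A*, *HSP17.6II*, *HSP18.2*, *HSP17.4* and *HSP21*. All 10 passed the filter on low counts and were among the 19408 genes tested. Messenger RNA was counted in leaves of 20-day-old plants of the Columbia accession, with 3 wild type and 3 *trm5-1* libraries, which the labels number as replicates 2, 3 and 4 in each genotype. The *trm5-1* plants are homozygous for 1 T-DNA insertion in *TRM5* (AT3G56120), which encodes a tRNA methyltransferase, and no second allele or complemented line was sequenced. The sources used here describe no heat treatment, and they do not give the temperature or the hour of the leaf harvest. A supplementary legend of the study gives 10-day-old seedlings for these libraries, whereas the labels and the methods give 20-day-old leaf. The study made these libraries to set mRNA levels beside its protein measurements in *trm5* plants.

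The windows before the start codons are shown first, since heat shock factors act through elements in them. A heat shock element of 3 units was searched for as GAANNTTCNNGAA on both strands (TTCNNGAANNTTC when read from the other strand) in the 500 bases before the start codon, in the RefSeq annotation of TAIR10.1. It was found for 5 of the 10 genes (*HSP90.1*, *HSP70*, *HSP18.2*, *HSP17.4* and *HSFA2*), against 329 of all 27443 windows of this length (1.2%). In the 250 bases before the annotated gene start, 3 of the 10 had it, *DREB2A* among them, against 0.386% of all windows. The sites follow, 5′ to 3′ on the strand of the gene, with the GAA and TTC units in capitals and 8 flanking bases on each side.
HSP90.1: aacgaaaaGAActTTCtgGAAttcgtttg
HSP70: ttactcgtGAAcgTTCtcGAAagctcttt
HSP18.2: caacaaacGAAacTTCctGAAatgccaag
HSP17.4, site farther from the start codon: tcaacataGAAgcTTCttGAAgccacctg
HSP17.4, site nearer to the start codon: agaaacctGAAatTTCaaGAAacttgcag
HSFA2: ttagtaacGAAgtTTCtgGAAcattgtct
DREB2A: cagcgtgtTTCgaGAAgaTTCgggaggac

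The *HSP90.1* site lies at chr5:21352254-21352282 on the plus strand and starts 295 bases before the start codon, where the gene model of *HSP90.1* begins. The *HSP70* site (chr3:3993846-3993874, minus strand) starts 177 bases and the *HSP18.2* site (chr5:24062388-24062416, plus strand) 236 bases before the start codon, and both lie inside the annotated 5′ untranslated region. The *HSP17.4* sites (chr3:16984946-16984974 and chr3:16984865-16984893, minus strand) start 233 and 152 bases before the start codon. The *HSFA2* site (chr2:11135528-11135556, plus strand) starts 320 bases before it and the *DREB2A* site (chr5:1602033-1602061, plus strand) 609 bases before it. Shorter matches of 2 units (GAANNTTC or TTCNNGAA) were present in the 500-base window of 9 of the 10 genes and of 33.9% of all windows, and so set the 10 genes apart less. Every 3-unit match also holds both kinds of 2-unit match. The dehydration-responsive element that DREB2A binds (ACCGAC or GCCGAC) was found in the 500-base window of 1 of the 10 genes, *HSP70*, against 12.9% of all windows. A match is a run of letters and not a measured binding site.

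Library totals ran from 14954658 to 26927531 counts. The targeted gene *TRM5* was checked first. Wild type replicates 2, 3 and 4 held 179, 643 and 526 of its counts, and the *trm5-1* libraries 100, 72 and 110. The log2 fold change was -2.25 (standard error, SE, 0.31), and the quasi-likelihood test of edgeR gave an adjusted p of 0.0226. Both replicates 4 mostly lay between their replicates 2 and 3. Of the genes that differed by more than 4-fold between replicates 2 and 3, replicate 4 was between them for 2559 of 2639 genes in wild type and 650 of 714 in *trm5-1*. Over all tested genes it was between them for 15787 of 19408 (81.3%) in wild type and 13269 (68.4%) in *trm5-1*. As a weighted sum of the counts of replicates 2 and 3, wild type replicate 4 took weights of 0.786 and 0.564, and *trm5-1* replicate 4 of 0.755 and 0.425. If a replicate 4 shares material with the others, the p-values are too small, and results are also given without both replicates 4. Wild type replicate 2 stood apart in light-harvesting and clock mRNAs: wild type counts were 634, 223288 and 124083 for *LHCB1.1* and 231, 5059 and 3095 for the clock gene *PRR7*, whereas *trm5-1* counts were 360, 377 and 365 and 242, 842 and 522. Markers of leaf summed to between 14538 and 30741 CPM (counts scaled to TMM library sizes) in wild type and between 5722 and 11109 in *trm5-1*, with 5 of 5 tested. Root markers were near 0 (at most 0.445 CPM in sum, 0 of 7 tested, 2 of them at 0 in all libraries). Seed markers summed to 0 to 7.56 CPM in wild type and 1.92 to 3.51 in *trm5-1*, and flower markers to 3.7 to 10.4 and 1.03 to 1.45 CPM. Whether these differences have a part in the heat shock mRNA levels was not tested.

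None of the 10 heat shock genes passed the test between the genotypes. The mRNA levels of *HSP90.1*, *HSP70* and *HSP21* were higher in every *trm5-1* library than in every wild type library, those of the other 7 overlapped, and *HSP90.1*, with a 3.19-fold higher mean in *trm5-1*, had the lowest p of the 10. In the quasi-likelihood test of edgeR, with p-values adjusted by Benjamini-Hochberg over 19408 genes, 0 of the 10 were called lower (7.15% of all tested genes were) and 0 higher (4.30% were) at an adjusted p under 0.05. At an unadjusted p under 0.05, 1 was higher (*HSP90.1*) and 0 were lower, against 13.6% and 19.2% of all tested genes. The 3 genes whose genotypes did not overlap were all higher in *trm5-1*, against 19.7% of all tested genes, and 0 were lower, against 20.0%. Of the 3, *HSP21* passed the filter on low counts through its *trm5-1* libraries (18, 19 and 31 counts, against 8, 0 and 6 in wild type). Its lack of overlap is therefore a description and not support for a difference. The fitted log2 fold change was above 0 for 6 of the 10 and below 0 for 4, with a median of 0.77, and the median of all tested genes was -0.00094. The DESeq2 test called 1 of the 10 higher, *HSP90.1*, and 0 lower, where it called 9.11% of its genes higher and 14.7% lower, and limma called 0 of the 10. Of the 6 genes with a 3-unit heat shock element in either window, *HSP90.1* and *HSP70* did not overlap between genotypes and *HSP18.2*, *HSP17.4*, *HSFA2* and *DREB2A* did, and *HSP21* has 2-unit matches only. In bulk leaf, a changed share of some cell type and a changed amount of mRNA per cell cannot be told apart, for higher and for lower levels.

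**Figure D1:**
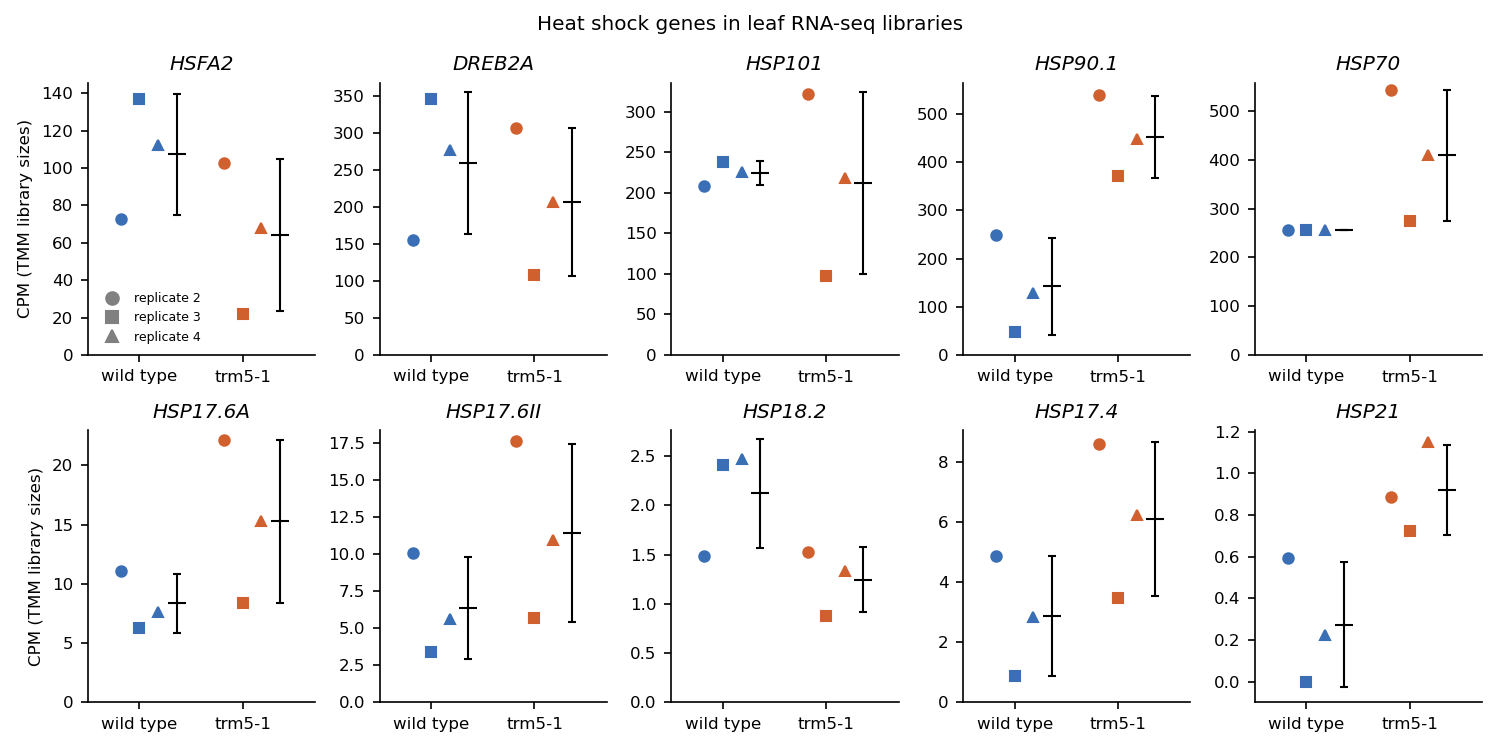
CPM on TMM library sizes (vertical axis, linear) of the 10 genes in each leaf library, with circles for replicate 2, squares for replicate 3, triangles for replicate 4, and black bars for mean ± SD (n = 3). *HSP90.1*, *HSP70* and *HSP21* do not overlap between wild type (blue) and *trm5-1* (orange), and in *trm5-1* the square is the lowest point of every gene.

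Between the genes, levels were compared per kilobase of exon, over all 6 libraries. *DREB2A*, *HSP90.1* and *HSP70* stood at the top with means of 141.5, 141.4 and 132 CPM per kilobase, and their ranges overlapped. *HSP70* did not overlap *HSP101*, the next gene (lowest *HSP70* value 102 and highest *HSP101* value 95.6 CPM per kilobase). *HSP101* (mean 64.8) overlapped *HSFA2* (45.7). The small heat shock protein genes followed at 13.4 for *HSP17.6A*, 10.09 for *HSP17.6II*, 6.21 for *HSP17.4*, 1.72 for *HSP18.2* and 0.606 CPM per kilobase for *HSP21*, each overlapping the next.

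The mRNAs of both regulators had lower means in *trm5-1*, with differences that were within the spread between libraries. *HSFA2* (AT2G26150, chromosome 2, 11135624 to 11137792, 3 exons) was measured at 72.7, 137 and 112 CPM in wild type replicates 2, 3 and 4 and at 103, 21.6 and 67.8 CPM in those of *trm5-1*. The genotypes overlapped, since *trm5-1* replicate 2 was above wild type replicate 2. The means were 107 ± 32.5 and 64.1 ± 40.7 CPM (SD, n = 3), with a log2 fold change of -0.74 (SE 0.55, 95% interval -2.08 to 0.59, adjusted p = 0.384 from edgeR), and it was -0.31 without *trm5-1* replicate 3 and -1.24 without *trm5-1* replicate 2. *DREB2A* (AT5G05410, chromosome 5, 1602205 to 1604112, 2 exons) was measured at 156, 347 and 277 CPM in wild type and at 307, 108 and 207 CPM in *trm5-1*. Replicate 3 was its highest library in wild type and its lowest in *trm5-1*. Its log2 fold change was -0.33 (SE 0.46, 95% interval -1.44 to 0.78, adjusted p = 0.646 from edgeR), and without *trm5-1* replicate 3 it was 0.00. These intervals hold both 0 and changes of more than 2-fold in the direction of lower levels, so these libraries do not exclude such a change in either regulator.

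*HSP101* (AT1G74310, chromosome 1, 27936508 to 27940369, 6 exons) encodes the cytosolic disaggregase needed for acquired heat tolerance. Its level was 209, 238 and 225 CPM in wild type, a narrow range, and 321, 97.0 and 218 CPM in *trm5-1*, where replicate 2 was above and replicate 3 below every wild type library. The means were 224 ± 14.6 and 212 ± 112 CPM (SD, n = 3). The log2 fold change was -0.08 (SE 0.42, 95% interval -1.09 to 0.94, adjusted p = 0.915 from edgeR) and turned to 0.29 without *trm5-1* replicate 3.

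*HSP90.1* (AT5G52640, chromosome 5, 21352557 to 21355147, 4 exons) is the stress-inducible member of the cytosolic HSP90 genes. It was measured at 249.7, 48.5 and 128 CPM in wild type and at 540.1, 370.4 and 448 CPM in *trm5-1*. Every *trm5-1* library was above every wild type library, while wild type libraries differed among themselves by 5.15-fold and *trm5-1* libraries by 1.46-fold. The means were 142 ± 101.3 and 453 ± 85.0 CPM (SD, n = 3), and the log2 fold change was 1.67 (SE 0.58, 95% interval 0.28 to 3.07), with an unadjusted p of 0.0256 and an adjusted p of 0.103 from edgeR. DESeq2 gave an adjusted p of 0.0216. Without wild type replicate 2, the library that stood apart, edgeR gave a log2 fold change of 2.38 and an adjusted p of 0.0169, and without wild type replicate 3 it gave 1.26 and 0.0876. In the fit without replicate 2, 16.2% of all genes were called higher and 21.5% lower. Without both replicates 4 the log2 fold change was 1.62 and the adjusted p from edgeR was 0.647.

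*HSP70* (AT3G12580, chromosome 3, 3991117 to 3993886, 2 exons) encodes a heat-inducible cytosolic HSP70. Wild type libraries stood at 257, 256 and 256 CPM, and *trm5-1* libraries at 545, 276 and 410.3 CPM. The wild type values were nearly equal (highest over lowest 1.00), and the lowest *trm5-1* library, replicate 3, was only slightly above them. The means were 256 ± 0.514 and 410.3 ± 135 CPM (SD, n = 3). The log2 fold change was 0.68 (SE 0.29, 95% interval -0.01 to 1.37, adjusted p = 0.158 from edgeR), and it was 0.44 without *trm5-1* replicate 2 and 0.92 without *trm5-1* replicate 3.

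Of the 5 small heat shock protein genes, 4 had fitted log2 fold changes above 0 and 1 below 0, and only *HSP21* did not overlap between genotypes. *HSP17.6A* and *HSP17.6II* encode cytosolic proteins and lie in tandem on the minus strand of chromosome 5 (3883957 to 3884838 and 3882231 to 3883111, 1 exon each), separated by 845 bases. *HSP17.6A* (AT5G12030) was measured at 11.1, 6.27 and 7.67 CPM in wild type and 22.2, 8.35 and 15.3 CPM in *trm5-1*. *HSP17.6II* (AT5G12020) was measured at 10.08, 3.37 and 5.65 CPM in wild type and 17.62, 5.68 and 10.9 CPM in *trm5-1*. In both genotypes both genes were highest in replicate 2 and lowest in replicate 3, and for both the *trm5-1* replicate 3 lay inside the wild type range. The log2 fold changes were 0.88 (SE 0.40, adjusted p = 0.181) and 0.85 (SE 0.54, adjusted p = 0.309, both from edgeR). With 1 library left out they ran from 0.53 to 1.19 and from 0.41 to 1.36, lowest in both without *trm5-1* replicate 2. The sources used here do not say how reads that match more than 1 gene were counted, so reads of these similar genes may have been split between them.

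*HSP17.4* (AT3G46230, chromosome 3, 16984118 to 16984867, 1 exon) had 66, 25 and 76 counts in wild type and 175, 91 and 169 in *trm5-1*, which gave 4.89, 0.886 and 2.84 CPM and 8.61, 3.47 and 6.26 CPM. The highest wild type library was above the lowest *trm5-1* library. Its log2 fold change was 1.11 (SE 0.64, 95% interval -0.42 to 2.65, adjusted p = 0.269 from edgeR), and it was 0.67 without wild type replicate 3 and 1.73 without wild type replicate 2. *HSP18.2* (AT5G59720, chromosome 5, 24062323 to 24063300, 1 exon) was the only one of the 5 with a lower mean in *trm5-1*. It had 20, 68 and 66 counts in wild type and 31, 23 and 36 in *trm5-1*, or 1.48, 2.41 and 2.47 CPM and 1.53, 0.877 and 1.33 CPM. Wild type replicate 2 fell inside the *trm5-1* range. Its log2 fold change was -0.78 (SE 0.35, 95% interval -1.62 to 0.06, adjusted p = 0.174 from edgeR).

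*HSP21* (AT4G27670, chromosome 4, 13818825 to 13819971, 2 exons) encodes the chloroplast small heat shock protein, and it was the least abundant of the 10 mRNAs. It had 8, 0 and 6 counts in wild type replicates 2, 3 and 4 and 18, 19 and 31 counts in *trm5-1*. The genotypes did not overlap (0.593, 0 and 0.224 CPM against 0.886, 0.725 and 1.15 CPM), but the gene passed the filter on low counts through its *trm5-1* libraries. The 0 of wild type replicate 3 allows a level of up to 0.106 CPM at 3 counts from counting error alone. The fitted log2 fold change over all libraries was 1.96 (SE 0.95, 95% interval -0.33 to 4.25, adjusted p = 0.203 from edgeR). It was 1.26 without wild type replicate 3, the library at 0 (adjusted p = 0.231), 3.03 without wild type replicate 2 (adjusted p = 0.0478) and 1.63 without both replicates 4 (adjusted p = 0.780, all from edgeR).

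**Figure D2:**
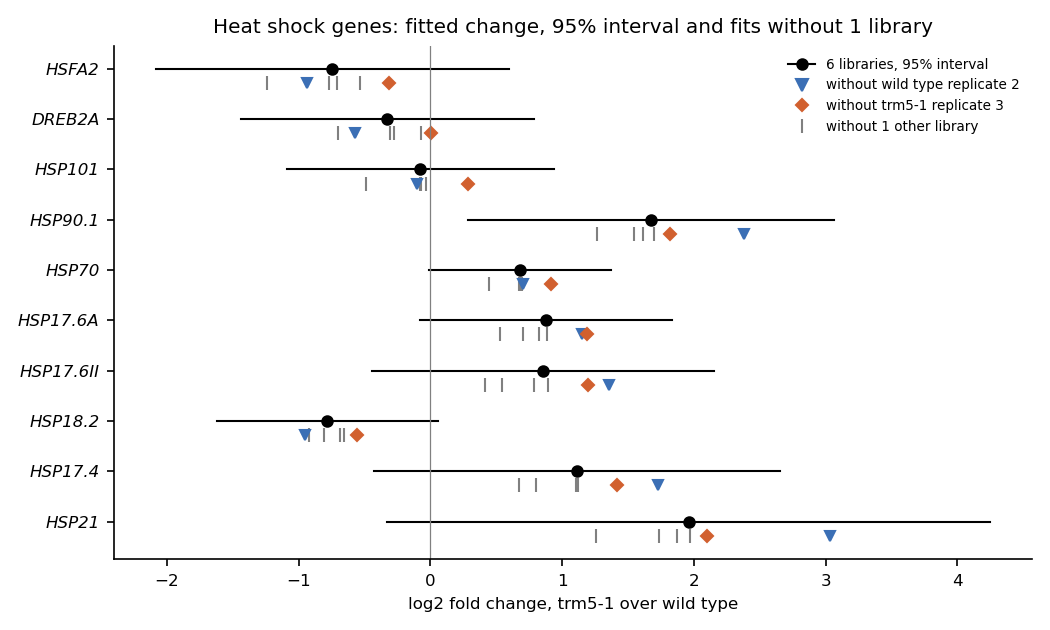
Log2 fold change of *trm5-1* over wild type from edgeR (horizontal axis) for each of the 10 genes, with black points and lines for the fit to 6 libraries and its 95% interval, and smaller marks for fits that leave out 1 library. Only the interval of *HSP90.1* (0.28 to 3.07) lies on 1 side of 0, and the marks of *DREB2A* and *HSP101* without *trm5-1* replicate 3 reach 0.00 and 0.29.

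Several of the 10 mRNAs differed more between libraries of 1 genotype than between the genotype means. The commonest order of libraries was the same in both genotypes, but *HSFA2*, *DREB2A* and *HSP101* had opposite orders in wild type and *trm5-1*. All 10 were, in *trm5-1*, lower in replicate 3 than in replicate 2, on the scale of log2(CPM + 0.1), with differences from -0.26 for *HSP21* to -2.24 for *HSFA2*. In 9 of the 10 the order was replicate 2, then 4, then 3, against 35.7% of all tested genes, and none had the opposite order, against 32.6%. The order was not particular to the 10, since 49 of 67 other tested genes of the heat response (73.1%) had it in *trm5-1* and 11 (16.4%) the opposite order. In wild type, 6 genes had the order 2, 4, 3 (39.5% of all tested genes) and 3 genes the opposite order (41.8%). Replicate 3 minus replicate 2 of wild type was -2.36 for *HSP90.1* and -2.34 for *HSP17.4*, or -2.34 and -1.64 on the scale of log2(CPM + 1). For *HSP21*, with 0 counts in wild type replicate 3, the difference was set by the pseudocount (-2.79 with 0.1 and -0.67 with 1). *HSFA2*, *DREB2A*, *HSP18.2* and *HSP101* went the other way, at 0.91, 1.15, 0.67 and 0.19 on the scale of log2(CPM + 0.1), and *HSP70* stood at -0.01.

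**Figure D3:**
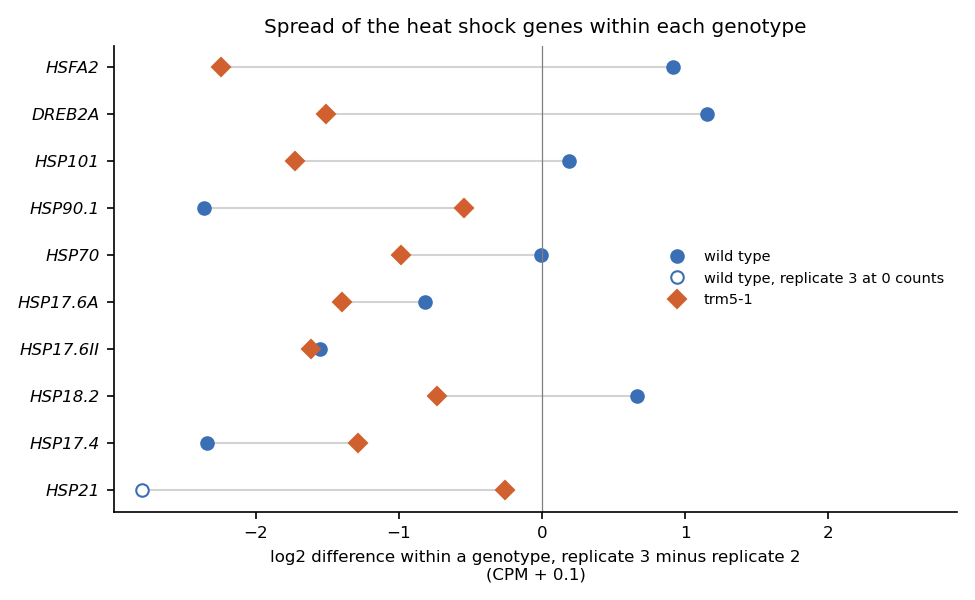
Difference between replicate 3 and replicate 2 of 1 genotype on the scale of log2(CPM + 0.1) (horizontal axis) for the 10 genes, with circles for wild type and diamonds for *trm5-1*. All diamonds lie below 0, from -0.26 for *HSP21* to -2.24 for *HSFA2*, while the filled circles run from -2.36 for *HSP90.1* to 1.15 for *DREB2A*, and the open circle is *HSP21*, whose wild type value is set by the pseudocount.

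The 10 mRNAs did not follow 1 pattern across the libraries. As a description over 6 libraries, which are not independent since they fall into 2 genotypes and each replicate 4 resembles the others of its genotype, log2 levels of *HSP17.6A* and *HSP17.6II* had Pearson's r of 0.97, those of *HSP90.1* and *HSP21* 0.97, and those of *HSP90.1* and *HSP17.4* 0.94. *HSFA2* and *DREB2A* had r of 0.93, *HSP101* and *HSFA2* 0.90, and *HSFA2* and *HSP18.2* 0.89. *HSP90.1* and *HSP18.2* ran in opposite directions (r of -0.79), as did *HSP18.2* and *HSP21* (-0.79), and the r of *HSFA2* with *HSP17.6A* and *HSP17.6II* was 0.03 and 0.00. The r values of *HSP21* rest on 0 to 31 counts a library and those of *HSP18.2* on 20 to 68. *HSP21* also passed the filter on low counts through its *trm5-1* libraries. *HSP70* had r of 0.93 with *HSP17.6A* and 0.10 with *HSFA2*. Outside the lists, the 5 genes with levels most like the mean of the standardised levels of the 10 were *ABCG24* (AT1G53390), AT4G02420, AT2G36430, *ANK* (AT5G54610) and *LYK2* (AT3G01840), with r between 0.988 and 0.999 over 6 libraries. Their genotypes overlapped, as in *LYK2*, which had 117, 100 and 167 counts in wild type and 506, 66 and 415 in *trm5-1*.

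Of 75 further genes of the heat response, 67 passed the filter on low counts, and 3 were higher and 0 lower in *trm5-1* at an adjusted p under 0.05 by edgeR, where 4.30% and 7.15% of all tested genes were. The 3 called genes were *JUB1*, *DREB2C* and *CLPB4*. The log2 fold change was above 0 in 51 of the 67 and below 0 in 16, with a median of 0.34. Of all 19408 tested genes, 9687 were above 0 and 9721 below 0. Of the 67, 20 genes did not overlap in the direction of higher levels (19.7% of all tested genes) and 2 in that of lower levels (20.0%). Those 2, named after their values were seen, were the heat shock factor gene *HSFA6B* (log2 fold change -1.56, adjusted p = 0.167) and *HSA32* (-0.72, adjusted p = 0.18), which is needed for long-term acquired heat tolerance. At an unadjusted p under 0.05, 18 of the 67 were higher and 0 lower, against 13.6% and 19.2% of all tested genes. Of the genes in these counts, *JUB1*, *HSP22.0* and *HSP26.5-M* passed the filter on low counts through their *trm5-1* libraries, and *HSFA6B* through its wild type libraries. With upper quartile normalization, which moved the median of all tested genes from -0.00094 to -0.12, 45 of the 67 were above 0. The number of calls turned on single libraries. Without wild type replicate 2 there were 19 higher and 2 lower of 68, in a fit that called 16.2% of all genes higher and 21.5% lower. There was 1 higher without wild type replicate 3, and 0 without any 1 of wild type replicate 4 and *trm5-1* replicates 2, 3 and 4, or without both replicates 4.

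The further group of *DREB2* genes and their partners leaves out *DREB2A*, which is described above. *DREB2A* overlapped between the genotypes and had a lower mean in *trm5-1* (260 CPM in wild type and 207 CPM in *trm5-1*). In this group alone, every tested gene was higher in all *trm5-1* libraries than in all wild type libraries (5 of 5). The same held for 19.7% of all tested genes. Of the 5 genes in the group, 2 were called higher, against 4.30% of all tested genes. A further listed gene, *GRF7*, was left out by the filter. It had 0, 18 and 14 counts in wild type and 2, 2 and 6 in *trm5-1*, with overlap and a lower mean in *trm5-1* (0.39 and 0.13 CPM). *JUB1* (AT2G43000) encodes a NAC transcription factor that activates *DREB2A*. It had 8, 5 and 8 counts in wild type and 55, 130 and 112 in *trm5-1*, with a log2 fold change of 3.56 (SE 0.50, adjusted p = 0.0236 from edgeR), and *trm5-1* replicate 3 was its highest library although it was the lowest for *DREB2A*. *JUB1* passed the filter on low counts through its *trm5-1* libraries, so its call and its lack of overlap are not support for a change in the group. *DREB2C* (AT2G40340), a relative of *DREB2A*, had 70, 86 and 114 counts in wild type and 179, 204 and 245 in *trm5-1*, with a log2 fold change of 1.05 (SE 0.24, adjusted p = 0.0455 from edgeR). *DREB2B*, the gene of the group with the highest level, was at 0.52 (SE 0.14, adjusted p = 0.0646). *DRIP1* and *DRIP2* encode ubiquitin ligases that target DREB2A for breakdown, and they were at 0.68 (adjusted p = 0.0547) and 0.52 (adjusted p = 0.17, both from edgeR).

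Among the HSP100 genes, *CLPB4* (AT2G25140), which encodes the mitochondrial relative of HSP101, had 302, 689 and 604 counts in wild type and 653, 887 and 909 in *trm5-1*. Its level was 23.1 ± 1.12 and 33.2 ± 0.938 CPM (SD, n = 3), with a log2 fold change of 0.52 (SE 0.12, adjusted p = 0.0420 from edgeR). The chloroplast relative *CLPB3* was at 0.05 (adjusted p = 0.845) and at -0.071 with upper quartile normalization. The call of *CLPB4* was lost under 11 of 15 alternatives, that of *DREB2C* under 10 of 15 and that of *JUB1* under 6 of 14.

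No gene was called by edgeR in the other families, where at an unadjusted p under 0.05 the small heat shock protein, HSP70, HSP90, heat shock factor and cochaperone lists held 5 of 13, 2 of 11, 1 of 5, 2 of 15 and 3 of 16 higher genes and 0 lower ones, against 13.6% and 19.2% of all tested genes. The 5 small heat shock protein genes include *HSP22.0* (2, 0 and 9 counts in wild type, 29, 24 and 21 in *trm5-1*) and *HSP26.5-M* (9, 1 and 4, against 24, 22 and 34). Both passed the filter on low counts through their *trm5-1* libraries. Over all families DESeq2 called 16 of 71 further genes higher, against 9.11% of its genes, and 0 lower, against 14.7%. The 13 small heat shock protein genes outside the 10 had a median log2 fold change of 0.71, with 10 above 0 and a range from -0.80 to 2.64. *HSP18.5*, their most abundant mRNA, was at 0.55 (adjusted p = 0.173 from edgeR). The 11 tested HSP70 genes had a median of 0.30, and *HSC70-1*, a constitutive cytosolic HSP70 with 3055 and 3602 CPM in wild type and *trm5-1*, was at 0.24 (adjusted p = 0.713). *HSP70-2* (AT5G02490), named after its values were seen, had 3292, 1292 and 3270 counts in wild type and 10383, 11221 and 12294 in *trm5-1*. Its log2 fold change was 1.76 (SE 0.58, adjusted p = 0.0931 from edgeR). As with *HSP90.1*, wild type replicate 3 was the lowest library and the genotypes did not overlap. The 5 HSP90 genes had a median of 0.30, and *HSP90.2*, a constitutive cytosolic relative of *HSP90.1*, was at 0.15 (adjusted p = 0.814) and at -0.16 without *trm5-1* replicate 2. *HSP90.2*, *HSP90.3* and *HSP90.4*, and likewise *HSC70-1*, *HSP70-2* and *HSP70-3*, are close copies whose reads may be shared.

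The 15 tested heat shock factor genes had a median log2 fold change of 0.01, with 9 above 0 and 6 below 0, and of -0.08 with upper quartile normalization. Their most abundant mRNA, *HSFA4A*, was at 1.33 (SE 0.45, adjusted p = 0.0992 from edgeR) with 1858, 2098 and 2683 counts in wild type and 7762, 3307 and 7425 in *trm5-1*. Its levels were 104 ± 31.8 and 261 ± 129 CPM (SD, n = 3), and the genotypes overlapped. The HSFA1 genes, the master regulators that activate *HSFA2* and *DREB2A* in heat, were at 0.00 for *HSFA1A*, -0.22 for *HSFA1B*, 0.55 for *HSFA1D* and -0.21 for *HSFA1E*, with adjusted p-values of 0.999, 0.488, 0.151 and 0.571 from edgeR. These 4 were named after their values were seen. The 16 cochaperone and other heat response genes had a median of 0.37, with *ATJ3*, a J-domain partner of HSP70, at 0.34 (adjusted p = 0.381). The 8 genes left out by the edgeR filter were *HSP70T-1*, *CLPB2*, *HSFA6A*, *HSFA7B*, *HSFA9*, *HSFB1*, *HSFB3* and *GRF7*, of which *HSP70T-1* and *HSFB1* had 0 counts in all libraries.

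**Figure D4:**
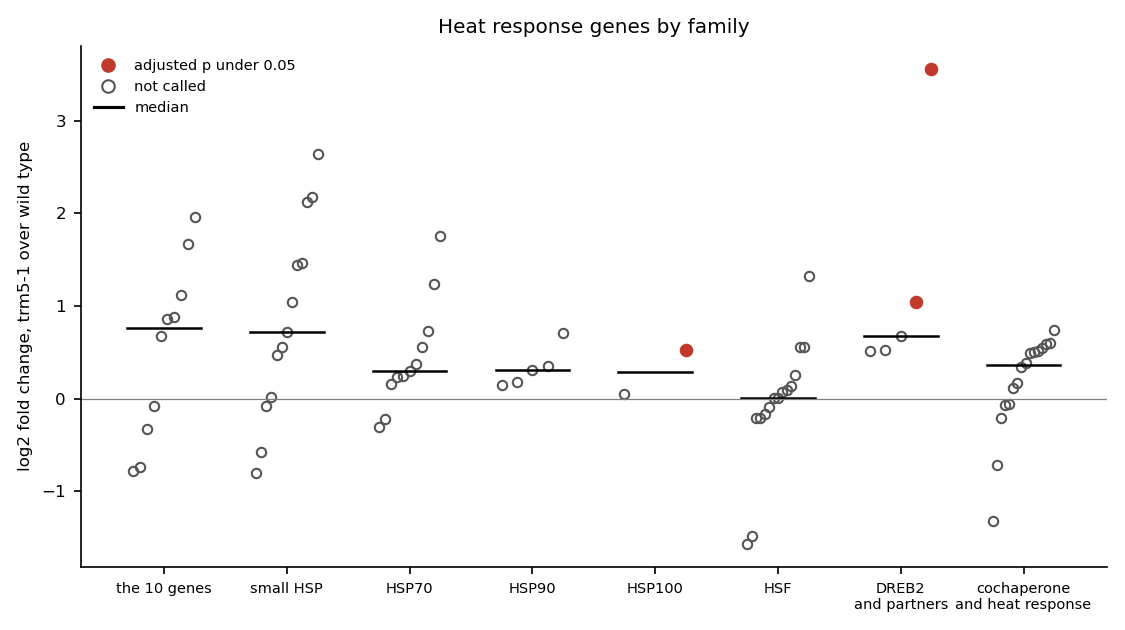
Log2 fold change of *trm5-1* over wild type from edgeR (vertical axis) of each tested gene, by family, with filled red points for an adjusted p under 0.05, open points for the others and a black line for the median. The only 3 filled points are *CLPB4* (0.52), *DREB2C* (1.05) and *JUB1* (3.56), and the medians run from 0.01 for heat shock factors to 0.77 for the 10 genes.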

How the data were processed

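Leaf RNA-seq libraries of wild type and *trm5-1* were compared (3 against 3, grouped by genotype), and the tRNA-seq files were not used. The authors trimmed reads with Trim Galore 0.4.2, mapped them to TAIR10 with STAR 2.5.3 and deposited featureCounts counts per gene, whose strand and multi-mapping settings are not given in the sources used here. They also deposited normalized values, a signal made by dividing counts by size factors, which served only for limma. The labels call the libraries replicates, the methods call them biological, and neither names separate plants, so p-values measure the spread between these libraries.

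The test of counts was that of edgeR 4.0.16 under R 4.3.3 (filterByExpr, TMM, quasi-likelihood test, Benjamini-Hochberg over 19408 genes, calls at an adjusted p under 0.05). The common biological coefficient of variation was 34.4%. The standard error is the log2 fold change divided by the square root of F. DESeq2 1.42.0, limma 3.58.1 on log2(normalized value + 1) or + 0.1, other normalizations and filters, a replicate block, each library left out and both replicates 4 left out were alternatives. The script was tested on simulated data. Likeness used log2(CPM + 1). Coordinates are those of RefSeq TAIR10.1, since the count table has none. All 119 listed genes matched it. Figures were drawn with matplotlib 3.10.9.

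The 10 genes and the lists were chosen with earlier results of these data known. Named genes are the 10, *TRM5*, in each further family the called genes (up to 3 in each direction) and the gene of the highest mean CPM, and the 5 most alike in level. Intervals at 0 counts cover counting error only.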

Additional observations from a re-analysis of the deposited data

How the results depend on the processing

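Of 19408 tested genes, 1387 were lower and 835 higher in *trm5-1* by edgeR. DESeq2 called 3229 and 2004, limma called 905 lower with a pseudocount of 1 and 773 with 0.1, leaving out 1 library gave 0 to 4334 lower and 0 to 3263 higher calls, and leaving out both replicates 4 gave 0 and 0 (1113 lower and 608 higher at an unadjusted p under 0.05). With the replicate number as a block there were 0 lower and 0 higher calls among all genes, 0 among the 10 heat shock genes and 0 among the 75 further genes. Same-numbered libraries had correlations of deviations of -0.02, 0.00 and 0.07, so the numbers were not read as pairs. Among the 10 genes, DESeq2 called 1 higher (9.11% of its genes were), and leaving out 1 library gave 0 to 2 higher calls. The 2 came without wild type replicate 2, a fit that called 16.2% of all genes higher. Of these 2, *HSP21* passed the filter on low counts through its *trm5-1* libraries, so its call is not support for a difference. Among the further genes the 3 higher calls became 16 with DESeq2, 1 without a filter, 1 with limma at a pseudocount of 1 and 1 at 0.1, 0 without both replicates 4 and 0 to 19 with 1 library left out, and the 0 lower calls became 0 to 2 with 1 library left out.

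The direction turned for *HSP101* without *trm5-1* replicate 3 (range with 1 library left out -0.49 to 0.29), *DREB2A* without *trm5-1* replicate 3 (-0.70 to 0.0031), *HSP90.2* without *trm5-1* replicate 2 (-0.16 to 0.45) and *CLPB3* with upper quartile normalization (-0.071), which moved the median of all genes to -0.12. The other 8 of the 10 genes kept their direction under every alternative run. The causes were not tested. Precision is limited by 3 libraries per genotype and, for *HSP21*, by 0 to 31 counts a library.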
